A study of Mus musculus with 6 samples.

Results

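Mast cells were followed through 10 of their genes, *Mcpt1*, *Mcpt2*, *Mcpt4*, *Cma1*, *Cpa3*, *Tpsb2*, *Fcer1a*, *Ms4a2*, *Kit* and *Il1rl1*, in RNA-seq of mouse colorectal tumors. The genes were chosen by name, and all 10 were found among the 54167 genes with deposited values. Transcript levels were given as TPM, which are scaled for transcript length and to the same total in each tumor. The group holds 6 protease genes and 4 receptor genes, and none of the 9 genes kept by a filter on low values passed the test between genotypes.

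The tumors came from C57BL/6J mice of 2 genotypes, with 3 tumors each. Trp53fl/fl mice carry loxP-flanked *Trp53* alleles and served as controls, and VP mice carry the same alleles together with Pvillin-Cre. The villin promoter drives Cre, and hence loss of *Trp53*, in the epithelium of the intestine, so that mast cells, which derive from the bone marrow, are not its target in either genotype. All mice were male, received 10 mg/kg azoxymethane (AOM), a carcinogen, at the age of 8 weeks, then drank 2.5% dextran sulfate sodium (DSS), which injures the colon lining, in courses of 7 days. Tumors were dissected away from surrounding tissue on day 98, and poly(A) RNA of the whole tumor was sequenced. *Trp53* was at 124.94, 99.30 and 147.45 TPM in Trp53fl/fl tumors against 38.45, 32.79 and 27.83 TPM in VP tumors, and it was lower in VP tumors (log2 fold change -1.87, SE 0.18, limma adjusted p = 0.0207). The labels do not tie each tumor to a mouse of its own, so that p-values measure the spread between these tumors. TPM keep no read numbers, hence the depth behind each value is unknown.

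Mast cells are granulated cells of connective tissue and mucosa that release stored proteases when antigen crosslinks IgE on their surface. In mice, mucosal mast cells are known for the chymases *Mcpt1* and *Mcpt2*, and connective tissue mast cells for the chymases *Mcpt4* and *Cma1*, the tryptase *Tpsb2* and the carboxypeptidase *Cpa3*. The IgE receptor contains an alpha chain (*Fcer1a*), a beta chain (*Ms4a2*) and a gamma chain, *Kit* binds stem cell factor, and *Il1rl1* encodes ST2, the receptor of interleukin 33.

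The 4 chymases lie close together on chromosome 14. By gene ID in the GENCODE M21 annotation of GRCm38, *Cma1* spans 55941451 to 55944675 on the minus strand, *Mcpt1* 56017971 to 56020384 on the plus strand, *Mcpt2* 56042041 to 56044642 on the plus strand and *Mcpt4* 56059629 to 56062313 on the minus strand. *Cpa3* is on chromosome 3 (20215620 to 20242181), *Tpsb2* on 17 (25366305 to 25369098), *Fcer1a* on 1 (173221284 to 173227214), *Ms4a2* on 19 (11615523 to 11623719), *Kit* on 5 (75574916 to 75656722) and *Il1rl1* on 1 (40429570 to 40465415). RefSeq promoter windows of GRCm38.p6, each 300 bases with 250 before the transcription start and 50 from it, were matched by symbol for 8 of the 10 genes, not for *Mcpt2* and *Tpsb2*. The windows of *Mcpt1* (chr14:56017714-56018013, plus strand) and *Mcpt4* (chr14:56062261-56062560, minus strand) are shown because they were far more alike than the other pairs aligned. Only the windows of *Mcpt1*, *Mcpt4*, *Cma1* and *Cpa3* were aligned. *Cpa3* (chr3:20242132-20242431, minus strand) is shown as a protease of another family. Each is written 5′ to 3′ on the strand of its gene, and capitals mark the letters GATA with A or T before them and A or G after them, on either strand, a motif of the GATA factors that mast cells use.
Mcpt1: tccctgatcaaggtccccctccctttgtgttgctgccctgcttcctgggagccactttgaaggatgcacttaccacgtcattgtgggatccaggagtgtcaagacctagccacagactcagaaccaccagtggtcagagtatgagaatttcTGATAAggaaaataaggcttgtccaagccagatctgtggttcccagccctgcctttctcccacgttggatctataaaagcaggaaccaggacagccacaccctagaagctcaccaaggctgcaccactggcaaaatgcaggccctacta
Mcpt4: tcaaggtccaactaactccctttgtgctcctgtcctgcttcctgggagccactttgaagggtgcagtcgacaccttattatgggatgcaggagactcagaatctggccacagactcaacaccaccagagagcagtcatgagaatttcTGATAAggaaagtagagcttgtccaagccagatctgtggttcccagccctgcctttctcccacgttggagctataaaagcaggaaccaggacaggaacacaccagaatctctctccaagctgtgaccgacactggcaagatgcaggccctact
Cpa3: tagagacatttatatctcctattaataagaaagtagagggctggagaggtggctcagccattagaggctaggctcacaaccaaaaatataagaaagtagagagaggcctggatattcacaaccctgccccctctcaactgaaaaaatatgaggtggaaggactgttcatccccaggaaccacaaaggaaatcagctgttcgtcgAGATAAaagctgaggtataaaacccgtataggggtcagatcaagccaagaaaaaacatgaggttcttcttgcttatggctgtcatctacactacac
The *Mcpt1* and *Mcpt4* windows were 80.6% identical when aligned, against 47.7% for either of them with *Cma1* and 48.8% for *Cma1* with *Cpa3*. They shared a run of 53 bases, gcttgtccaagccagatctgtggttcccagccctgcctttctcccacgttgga, which no other window of the 32851 held. The motif began at -99 from the start in *Mcpt1*, at -103 in *Mcpt4*, at -79 in *Cma1* and at -46 in *Cpa3*. It was present in 8 of the 10 windows of these genes and in 29.8% of all windows. *Kit*, with a pair of windows, had no match, which says only that these letters are not in those stretches. A match is a description of sequence, not a sign of binding.

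*Il1rl1* has a distal start, known from mast cells, and a proximal start, known from fibroblasts, and gene-level TPM do not separate them. Their windows, 10059 bases apart on the plus strand, are shown because the distal one (chr1:40429320-40429619) held 5 matches to the motif and the proximal one (chr1:40439379-40439678) held 1.
Il1rl1 distal: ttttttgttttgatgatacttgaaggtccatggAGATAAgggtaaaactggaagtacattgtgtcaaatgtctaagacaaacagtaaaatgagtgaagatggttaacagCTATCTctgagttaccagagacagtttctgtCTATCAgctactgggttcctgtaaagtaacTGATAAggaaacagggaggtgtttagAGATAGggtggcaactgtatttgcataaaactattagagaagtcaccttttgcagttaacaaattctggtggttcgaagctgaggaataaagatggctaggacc
Il1rl1 proximal: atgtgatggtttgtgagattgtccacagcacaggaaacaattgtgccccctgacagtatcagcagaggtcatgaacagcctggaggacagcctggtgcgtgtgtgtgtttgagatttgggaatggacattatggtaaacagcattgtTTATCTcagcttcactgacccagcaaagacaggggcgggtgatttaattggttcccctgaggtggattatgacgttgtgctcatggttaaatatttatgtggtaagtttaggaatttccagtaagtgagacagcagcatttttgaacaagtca
The distal matches began at -217, -141, -110, -80 and -54, and 0.0548% of all windows held at least 5. *Ms4a2* held 3 matches, at -224, -37 and -11, a number reached by 1.76% of windows. *Fcer1a* held 1 match, at -92.

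All 10 genes were above 0 in all 6 tumors. In order of mean level over the tumors, *Mcpt1* was at 100.7 TPM, *Il1rl1* at 69.2, *Mcpt2* at 62.1, *Tpsb2* at 16.5, *Cma1* at 14.2, *Kit* at 9.59, *Cpa3* at 8.90, *Mcpt4* at 6.01, *Fcer1a* at 3.62 and *Ms4a2* at 1.53 TPM. In each of the 9 neighbouring pairs of this order the ranges over the 6 tumors overlapped. The spread differed between genes, with the highest tumor at 9.86 times the lowest for *Mcpt1*, 11.9 times for *Ms4a2* and 1.37 times for *Kit*.

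**Figure D1:**
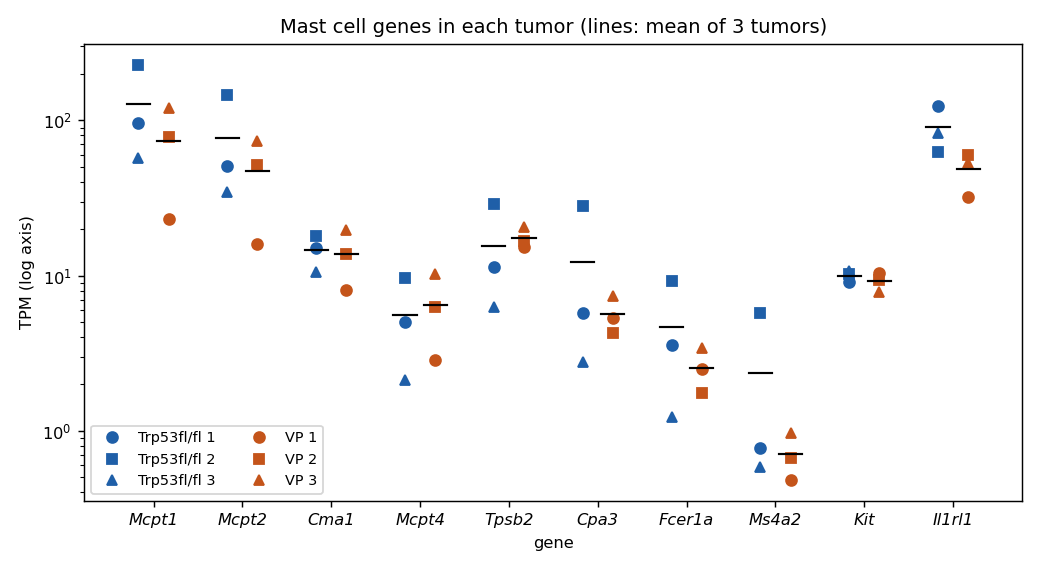
Level of each gene in each of the 6 tumors, in TPM on a log axis. Points are single tumors (blue Trp53fl/fl, orange VP), black lines are means of 3 tumors, and the VP points lie below all Trp53fl/fl points only for *Il1rl1*.

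The mucosal chymases were the most variable of the abundant genes. *Mcpt1* was at 96.68, 228.66 and 57.46 TPM in Trp53fl/fl tumors against 23.19, 78.68 and 119.81 TPM in VP tumors. The lowest value was in VP tumor 1 and the highest in Trp53fl/fl tumor 2, and the genotypes overlapped. The means were 128 ± 89.7 TPM (SD, n = 3) and 73.9 ± 48.5 TPM (SD, n = 3) and the log2 fold change was -0.83 on the log2(TPM + 1) scale (SE 0.68, 95% confidence interval -2.44 to 0.77, limma adjusted p = 0.621). It was -0.16 without VP tumor 1 and -0.30 without Trp53fl/fl tumor 2, but -1.28 without Trp53fl/fl tumor 3 and -1.32 without VP tumor 3. *Mcpt2* was at 50.99, 145.71 and 34.42 TPM in Trp53fl/fl tumors against 15.95, 51.65 and 74.12 TPM in VP tumors. Its highest and lowest tumors were those of *Mcpt1*, and its log2 fold change was -0.67 (SE 0.67, limma adjusted p = 0.684). This became -0.040 without VP tumor 1 and -0.079 without Trp53fl/fl tumor 2, but -1.10 without Trp53fl/fl tumor 3 and -1.11 without VP tumor 3. In bulk tumors, fewer mast cells and less of a transcript per mast cell cannot be told apart.

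The proteases of the connective tissue type were lower in level, and their differences went both ways. *Cma1* was at 15.06, 17.89 and 10.55 TPM in Trp53fl/fl tumors against 8.06, 13.67 and 19.78 TPM in VP tumors, with overlap (log2 fold change -0.11, SE 0.32, limma adjusted p = 0.896). *Mcpt4*, a chymase that binds heparin in the granule, was at 4.99, 9.57 and 2.11 TPM in Trp53fl/fl tumors against 2.85, 6.28 and 10.27 TPM in VP tumors. Both genes had their highest value in VP tumor 3, and the log2 fold change of *Mcpt4* was 0.23 (SE 0.53, limma adjusted p = 0.872). *Tpsb2* was at 11.42, 28.80 and 6.23 TPM in Trp53fl/fl tumors against 15.24, 16.81 and 20.55 TPM in VP tumors. The VP values lay within the Trp53fl/fl range, with a log2 fold change of 0.41 (SE 0.47, limma adjusted p = 0.728). *Cpa3*, which removes single residues from the ends of peptides, was at 5.70, 27.95 and 2.75 TPM in Trp53fl/fl tumors against 5.32, 4.29 and 7.36 TPM in VP tumors. Its VP values again lay within the Trp53fl/fl range, whose highest value was in tumor 2 (log2 fold change -0.46, SE 0.68, limma adjusted p = 0.793). Without that tumor the log2 fold change of *Cpa3* was 0.38 and that of *Cma1* 0.04, and without VP tumor 1 that of *Cma1* was 0.20. The direction of *Mcpt4* turned to -0.22 without Trp53fl/fl tumor 3 and to -0.14 without VP tumor 3, and that of *Tpsb2* to -0.064 without Trp53fl/fl tumor 3.

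The chains of the IgE receptor were the weakest of the 10 genes. *Fcer1a* was at 3.58, 9.24 and 1.22 TPM in Trp53fl/fl tumors against 2.49, 1.75 and 3.41 TPM in VP tumors (log2 fold change -0.43, SE 0.52, limma adjusted p = 0.741). Without Trp53fl/fl tumor 2, in which it was highest, the log2 fold change was 0.13. *Ms4a2* was at 0.77, 5.72 and 0.58 TPM in Trp53fl/fl tumors against 0.48, 0.67 and 0.97 TPM in VP tumors. It reached 1 TPM in Trp53fl/fl tumor 2 alone and so did not pass the filter of at least 1 TPM in at least 3 tumors. The genotypes overlapped, with p = 0.6 in a two-sided exact permutation test, in which 3 tumors against 3 cannot go below 0.1.

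*Kit* and *Il1rl1* had patterns apart from the granule proteases. *Kit* was at 9.04, 10.16 and 10.69 TPM in Trp53fl/fl tumors against 10.45, 9.39 and 7.83 TPM in VP tumors. This was the narrowest range of the 10 genes, and the 95% confidence interval of its log2 fold change of -0.11 ran from -0.46 to 0.25 (limma adjusted p = 0.782). The log2 fold change was -0.0045 without VP tumor 3 and -0.19 without VP tumor 1. *Il1rl1* was at 124.31, 62.52 and 83.44 TPM in Trp53fl/fl tumors against 31.90, 59.61 and 53.53 TPM in VP tumors. Each VP tumor was below each Trp53fl/fl tumor, but the gap between Trp53fl/fl tumor 2 and VP tumor 2 was small. The means were 90.1 ± 31.4 TPM (SD, n = 3) and 48.3 ± 14.6 TPM (SD, n = 3) and the log2 fold change was -0.88 (SE 0.31, 95% confidence interval -1.60 to -0.15). With an unadjusted p of 0.0243 it did not pass the adjustment over all genes (limma adjusted p = 0.341, and between 0.124 and 0.687 under the other settings). Its exact permutation p was 0.1, the smallest that 3 tumors against 3 allow.

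In all, 9 of the 10 genes passed the filter on low values and were tested among 15117 genes with limma. None was called at an adjusted p under 0.05, against 0.165% of all genes tested (0.0794% higher and 0.086% lower in VP tumors). The calls over all genes were 12 higher and 13 lower, or 12 and 8 after median-of-ratios rescaling and 10 and 21 after centring on epithelial genes. Of the 9, 1 gene, *Il1rl1*, had an unadjusted p under 0.05, against 12.5% of all genes tested. Of all 10 genes, 1 lay lower in VP tumors without overlap, which held for 13.3% of the genes tested, and none lay higher without overlap, which held for 6.03%. The median log2 fold change was -0.43 (2 higher, 7 lower) beside -0.07 for all genes tested. It was 0.04 without Trp53fl/fl tumor 2, -0.90 without Trp53fl/fl tumor 3, -0.16 without VP tumor 1 and -0.26 without VP tumor 2, so that its size and direction turned on single tumors.

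**Figure D2:**
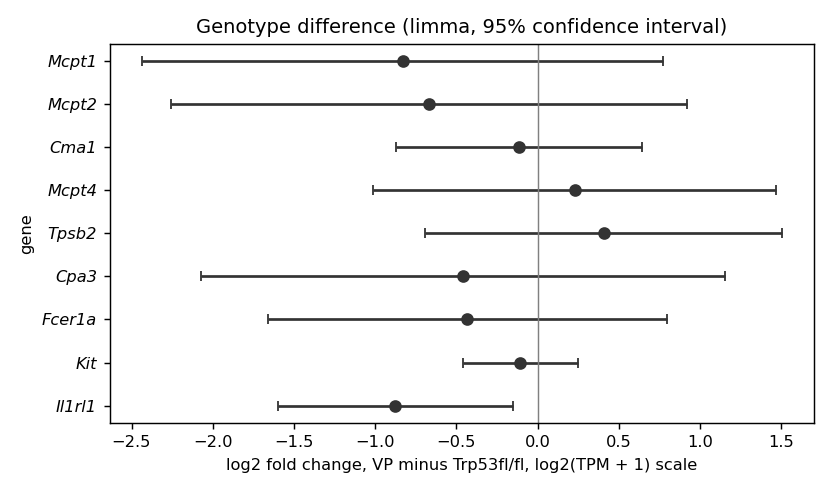
Log2 fold change of the 9 genes that passed the filter, VP minus Trp53fl/fl on the log2(TPM + 1) scale. Points are limma estimates and bars their 95% confidence intervals, and the interval of *Il1rl1*, from -1.60 to -0.15, lies below 0 whereas the other 8 include 0.

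The highest and lowest values gathered in a few tumors. Trp53fl/fl tumor 2 held the highest value of 6 of the 10 genes, *Mcpt1*, *Mcpt2*, *Cpa3*, *Tpsb2*, *Fcer1a* and *Ms4a2*, while 27.1% of all genes tested were highest in that tumor. VP tumor 1 held the lowest value of 5 genes (20.2% of all genes tested) and Trp53fl/fl tumor 3 that of 4 genes (11.2% of all genes tested). The summed TPM of the 6 proteases was 184.84, 458.58 and 113.52 in Trp53fl/fl tumors and 70.61, 171.38 and 251.89 in VP tumors. The same sum was thus 6.49 times as high in the highest as in the lowest tumor, and the genotypes overlapped. The 10 pan-leukocyte genes, among them *Ptprc* and *Cd53*, summed to between 386 and 458 TPM in Trp53fl/fl tumors and between 377 and 519 TPM in VP tumors. Their sum was lowest in VP tumor 1, but singly 1 of the 10 was lowest there and 5 of the 10 were lowest in Trp53fl/fl tumor 2, in which the summed proteases were highest. In VP tumors 8 of these were higher and 2 lower, without a call (median log2 fold change 0.11). The part of leukocyte content in the protease levels was not tested.

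**Figure D3:**
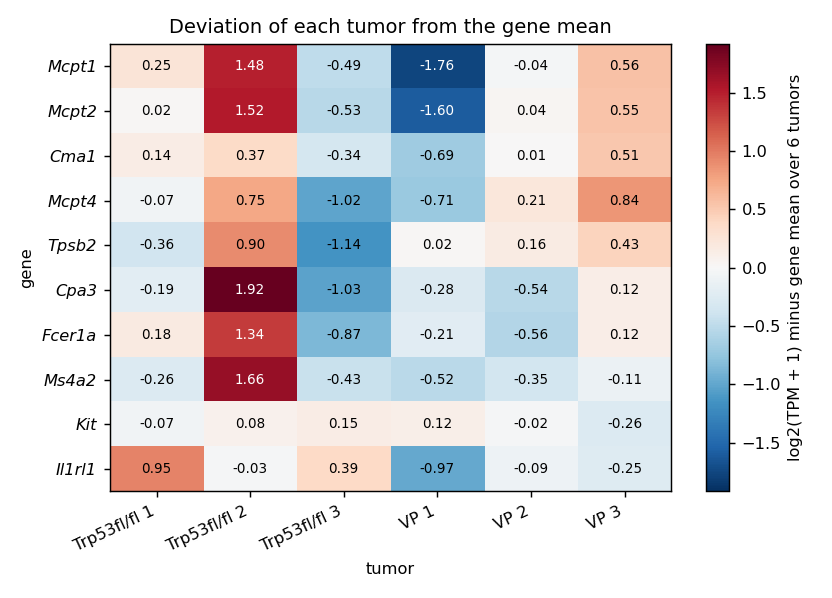
Deviation of each tumor from the mean of the gene over all 6 tumors, on the log2(TPM + 1) scale, with genes in rows, tumors in columns, red above and blue below the mean. Trp53fl/fl tumor 2 is above the mean for 9 of the 10 genes, by 1.92 for *Cpa3*, and VP tumor 1 is lowest for *Mcpt1* at -1.76.

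Across the 6 tumors the 4 chymases followed each other, with Pearson r of log2(TPM + 1) between 0.80 and 0.99 over their 6 pairs, and between 0.74 and 0.99 without Trp53fl/fl tumor 2. *Cpa3*, *Tpsb2*, *Fcer1a* and *Ms4a2* had r between 0.68 and 0.97 among themselves, and between 0.45 and 0.93 without that tumor. Between these 4 and the chymases r ran from 0.52 to 0.85, and from 0.18 to 0.99 without it. *Kit* had r between -0.72 and 0.10 with these 8 genes, and *Il1rl1* between -0.42 and 0.46, ranges that became -0.96 to -0.68 and -0.53 to 0.63 without that tumor. These are descriptions over 6 tumors that share their libraries. Of 14944 other genes with a mean of at least 1 TPM, the 5 most like the mean of the 9 tested genes were *Mcpt9* (r = 0.991), *Rnft1* (0.990), *Zfp235* (0.983), *Abtb2* (0.979) and *Rab10os* (0.976). Being the highest of 14944 values over only 6 tumors, they do not show a tie to mast cells, and no p is attached to them. *Mcpt9*, another chymase gene of the chromosome 14 cluster, was at 1.39, 4.66 and 0.37 TPM in Trp53fl/fl tumors against 0, 0.82 and 2.30 TPM in VP tumors, which put the tumors in the same order as *Mcpt1*. The values of *Mcpt9* are uncertain, for a reason given further on.

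The make-up of the protease transcripts was compared within each tumor, as ratios and shares of TPM. *Mcpt1* stood to *Mcpt2* as 1.90, 1.57 and 1.67 in Trp53fl/fl tumors and as 1.45, 1.52 and 1.62 in VP tumors, a span of 1.30 times while *Mcpt1* itself spanned 9.86 times. *Mcpt1* was 19.4, 23.9 and 27.2 times *Mcpt4* in Trp53fl/fl tumors and 8.14, 12.5 and 11.7 times in VP tumors, without overlap. It was 8.47, 7.94 and 9.22 times *Tpsb2* in Trp53fl/fl tumors and 1.52, 4.68 and 5.83 times in VP tumors, again without overlap. *Tpsb2* was 2.0, 1.03 and 2.27 times *Cpa3* in Trp53fl/fl tumors and 2.86, 3.92 and 2.79 times in VP tumors, also without overlap. By contrast, the ratios of *Mcpt1* to *Cma1* and of *Mcpt1* to *Cpa3* overlapped between genotypes, as did that of *Tpsb2* to *Mcpt4*. *Mcpt1* and *Mcpt2* together made up 79.9%, 81.6% and 80.9% of the TPM of the 6 proteases in Trp53fl/fl tumors and 55.4%, 76.0% and 77.0% in VP tumors. The difference of the means was -11.3 percentage points, and -4.30 without VP tumor 1. Of 16 ratios, shares and sums computed, 6 did not overlap between genotypes, while 19.3% of all genes tested did not overlap when taken singly. How often ratios of other genes fail to overlap was not computed, so the count is not read as an excess. Several of them share genes, those given were picked after their values were seen, and no p is attached to them.

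**Figure D4:**
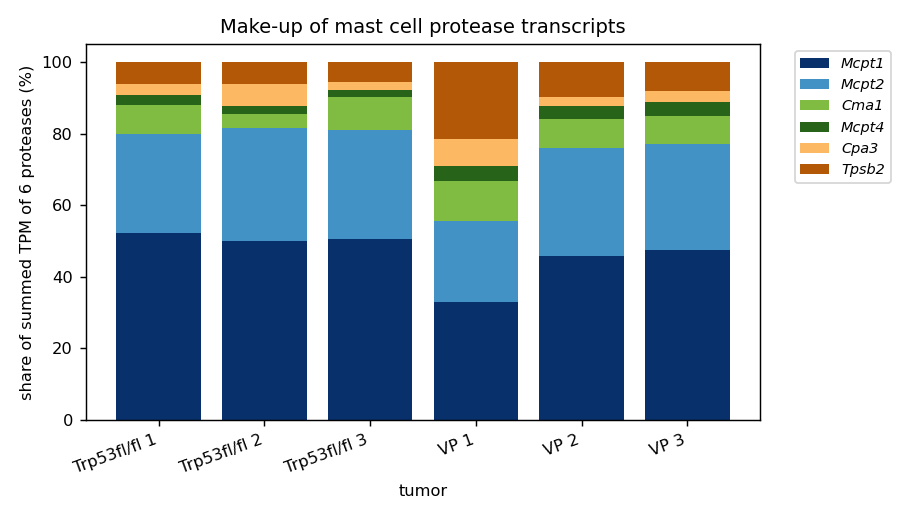
Share of each of 6 proteases in their summed TPM, in percent, 1 bar per tumor and 1 color per gene. The part of *Mcpt1* and *Mcpt2* lies between 79.9% and 81.6% in the Trp53fl/fl tumors and at 55.4%, 76.0% and 77.0% in the VP tumors, in which *Tpsb2* takes 21.6%, 9.81% and 8.16%.

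Reads of near-identical genes can be split by a quantification program, so the chymase transcripts were compared with each other. The longest transcripts of *Mcpt1* and *Mcpt2* were 70.9% identical and those of *Mcpt1* and *Mcpt4* 72.9% identical, but no stretch of 75 bases was shared between any of *Mcpt1*, *Mcpt2*, *Mcpt4* and *Cma1*, nor between *Tpsb2* and *Tpsab1*. *Mcpt4* shared 2.51% of its 75-base stretches with *Cma2*, and *Mcpt9* shared 14.3% with *Cma2*. The values of *Mcpt9* and *Cma2* are therefore uncertain, and to a lesser degree that of *Mcpt4* and its ratios. *Cma2*, a further chymase gene, was at 0.50, 1.29 and 0.70 TPM in Trp53fl/fl tumors against 0.10, 1.69 and 1.02 TPM in VP tumors. Of 11 further genes of the chymase cluster, *Cma2*, *Mcpt9* and granzymes among them, 4 passed the filter, 3 higher and 1 lower, none called (median log2 fold change 0.11). *Gzmb*, a granzyme of cytotoxic lymphocytes, was between 2.84 and 6.75 TPM and *Gzmc* between 0.28 and 3.35 TPM.

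Of 21 other genes of mast cells, 14 passed the filter, with 7 above and 7 below their Trp53fl/fl level in VP tumors and no call (median log2 fold change -0.01). *Hdc*, which makes histamine, was at 6.91, 5.74 and 7.88 TPM in Trp53fl/fl tumors against 5.76, 14.03 and 12.18 TPM in VP tumors (log2 fold change 0.50, limma adjusted p = 0.518). *Gata2*, a transcription factor of mast cells, was between 2.15 and 5.48 TPM (log2 fold change -0.26, limma adjusted p = 0.714), and *Tpsg1*, a transmembrane tryptase, stood at -0.33 on the log2 scale (limma adjusted p = 0.581). *Ctse*, an aspartic protease that epithelia also make, was at 55.10, 59.32 and 54.81 TPM in Trp53fl/fl tumors against 96.91, 81.47 and 111.83 TPM in VP tumors (log2 fold change 0.76, limma adjusted p = 0.134). *Tpsab1*, the other tryptase, stayed between 0.09 and 2.42 TPM, was highest in Trp53fl/fl tumor 2 and lowest in Trp53fl/fl tumor 3, and was below the filter.

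All 16 genes of IgE receptor signaling passed the filter, 9 higher and 7 lower, none called (median 0.01). *Fcer1g*, the gamma chain that other Fc receptors of myeloid cells also use, was at 74.22, 75.30 and 78.96 TPM in Trp53fl/fl tumors against 82.40, 112.00 and 97.44 TPM in VP tumors (log2 fold change 0.34, limma adjusted p = 0.369), without overlap. *Vav1*, an exchange factor of leukocytes, had a log2 difference of 0.34 (limma adjusted p = 0.408). *Plcg1*, a phospholipase, was between 26.35 and 27.35 TPM in Trp53fl/fl tumors and between 20.31 and 21.55 TPM in VP tumors (log2 fold change -0.34, limma adjusted p = 0.312), and the adaptor *Lat* had a log2 difference of -0.66 (limma adjusted p = 0.358). Both are also used by T cells.

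Among 17 ligands and partner receptors, 12 passed the filter, 8 higher and 4 lower, none called (median 0.15). *Kitl*, stem cell factor, was at 35.75, 76.39 and 20.66 TPM in Trp53fl/fl tumors against 26.70, 21.21 and 24.18 TPM in VP tumors (log2 fold change -0.66, SE 0.42, limma adjusted p = 0.525). It was highest in Trp53fl/fl tumor 2 and lowest in Trp53fl/fl tumor 3, as *Cpa3*, *Tpsb2* and *Fcer1a* were, while *Kit* was highest in Trp53fl/fl tumor 3. Of all genes tested, 27.1% were highest in Trp53fl/fl tumor 2 and 11.2% lowest in Trp53fl/fl tumor 3. A tie between *Kitl* and these genes was not tested. *Il33*, the ligand of ST2, was at 31.36, 21.35 and 31.22 TPM in Trp53fl/fl tumors against 20.07, 26.19 and 22.49 TPM in VP tumors, with overlap (log2 fold change -0.26, limma adjusted p = 0.561). *Il1rap*, the partner chain of ST2, had a log2 difference of 0.20 (limma adjusted p = 0.751). *Cxcr2*, a chemokine receptor that neutrophils carry in abundance, and *Myd88*, the adaptor of ST2 and of Toll-like receptors, stood at 0.72 and 0.44 on the log2 scale (limma adjusted p values 0.269 and 0.278), and *Il3ra* stood at -0.32 on that scale (limma adjusted p = 0.497). *Il3* and *Il9*, growth factors of mast cells, were listed at 0 in all tumors.

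Markers of other cells that express members of the group were read beside them. Of 6 basophil genes 3 passed the filter, *Il3ra*, *Itga2b* and *Cebpa*, with log2 fold changes of -0.32, 0.07 and 0.10. The defining *Mcpt8* and *Prss34* were at most 0.88 and 0.77 TPM, with *Mcpt8* at 0 in VP tumor 1 and *Prss34* at 0 in 3 tumors. *Cd200r3*, also below the filter, was at 0.52, 2.58 and 0.78 TPM in Trp53fl/fl tumors against 0.65, 0.40 and 0.77 TPM in VP tumors. Like *Fcer1a* and *Ms4a2* it was highest in Trp53fl/fl tumor 2. The part of basophils in the levels of those genes was not tested. Of 9 eosinophil genes 1 passed, *Prg2*, at 2.97, 3.92 and 1.96 TPM in Trp53fl/fl tumors against 5.81, 3.29 and 1.55 TPM in VP tumors. Its genotypes overlapped, and it stood at 0.12 on the log2 scale without a call. Among those that did not pass, *Ear2* reached 1.97 TPM and *Il5ra* 1.54 TPM, while *Epx* was at most 0.11 TPM. *Kit* also marks the interstitial cells of Cajal, the pacemakers of gut muscle, of whose 5 genes 3 passed and none was called. *Ano1*, their chloride channel, which epithelia also make, was between 67.06 and 79.47 TPM (log2 fold change 0.12, limma adjusted p = 0.597), while *Thbs4* stood at 1.01 and *Gja1* at -0.41 on the same scale (limma adjusted p values 0.345 and 0.390). The part of these cells in the level of *Kit* was not tested. *Il1rl1* is also made by regulatory T cells and type 2 lymphoid cells. Of 10 genes of these cells 8 passed, 1 higher and 7 lower, none called (median -0.17). *Foxp3*, which defines regulatory T cells, was at 1.65, 1.47 and 2.78 TPM in Trp53fl/fl tumors against 0.95, 1.45 and 2.72 TPM in VP tumors (log2 fold change -0.16). *Ctla4* and *Ikzf2*, both of regulatory T cells, had log2 fold changes of -0.41 and -0.28, and *Areg*, a growth factor that epithelia also make, one of 0.57. *Gata3* and *Klrg1* of the same list both stood at -0.12. Below the filter, *Il13* was at 0 in all Trp53fl/fl tumors and at 0.12, 0.25 and 0.07 TPM in VP tumors, and *Il5* was at most 0.14 TPM. Epithelial genes summed to between 11256 and 11894 TPM in Trp53fl/fl tumors and between 12765 and 13966 TPM in VP tumors without overlap, with 11 of 12 higher and none called, and all 8 smooth muscle genes were highest in VP tumor 2 and lowest in VP tumor 3. The part of these shifts in the lower *Il1rl1* values of VP tumors was not tested. After centring on the epithelial genes no gene of the group was called either.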

How the data were processed

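The authors extracted RNA from dissected tumors, prepared poly(A) libraries, sequenced both ends and deposited TPM per gene with 2 decimals for 6 tumors. The submitters' processing notes name HISAT2, StringTie and mm9, without versions. The table has no coordinates. Of 54167 gene IDs, 96.17% are in GENCODE M21 (GRCm38), from which coordinates and transcripts came. Promoter windows are from RefSeq (GRCm38.p6). Those positions are therefore of GRCm38, not of mm9. TPM depend on every other gene of a tumor, and keep no depth, so no count test or counting error could be given.

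Columns were assigned through the codes in the labels. The deposited TPM were transformed to log2(TPM + 1), and genes reaching 1 TPM in 3 or more tumors were tested with limma 3.58.1 in R 4.3.3 (genotype only, all 6 tumors, empirical Bayes with trend, Benjamini-Hochberg over all genes, two-sided, called at an adjusted p under 0.05), after a test on simulated data. Ratios, exact permutation tests (scipy 1.17.1) and alignments (Biopython 1.88) were made in Python 3.11.15. Fold changes on this scale understate changes of weakly expressed genes.

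The 10 genes and all lists were chosen with earlier results of these data known. Named beside them are *Trp53*, a fixed set of partner and marker genes, and the 5 genes most like the group. Genes with the 2 highest and 2 lowest fold changes of a described list are also named. This was not done in full for leukocytes, epithelium and smooth muscle. *Prss34*, *Cd200r3*, *Epx*, *Ear2*, *Il5ra*, *Il3*, *Il9*, *Gata3*, *Il5* and *Il13* were named after their values were seen. Alternatives were each tumor left out, the replicate number as a block, no trend, a pseudocount of 0.1, centring on epithelial or leukocyte genes, quantile normalization, median-of-ratios rescaling, and either no filter or a minimum mean of 5 TPM.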

Additional observations from a re-analysis of the deposited data

How the results depend on the processing

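None of the 9 tested genes of the group was called under any of 15 other settings, and between 0 and 2 had an unadjusted p under 0.05, none without Trp53fl/fl replicate 1, without VP replicate 1 or with a replicate block. The number of genes called in the whole table was 25, against 7 without a filter, 10 with a replicate block and 6 to 28 with a tumor left out. Without a filter even *Trp53* was not called (log2 fold change -1.87, limma adjusted p = 0.104). Same-numbered tumors did not deviate together (r = 0.0185, -0.0520 and 0.0175), so the numbers were not treated as pairs. The share of called genes that were higher in VP tumors was 48.0%, against 60.0% after median-of-ratios rescaling and 32.3% after centring on epithelial genes. Centring on epithelial genes put the median of all genes tested at -0.25, and centring on leukocyte genes at -0.15, against -0.07, on the log2 scale.

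*Mcpt1*, *Mcpt2*, *Kit* and *Il1rl1* had log2 fold changes below 0 under all 15 other settings, with ranges of -1.11 to -0.61 for *Il1rl1*, -1.32 to -0.16 for *Mcpt1*, -1.11 to -0.040 for *Mcpt2* and -0.28 to -0.0045 for *Kit*. Settings that altered only the filter, the block or the trend cannot move a log2 fold change, so their agreement in sign carries no weight. The other tested genes changed direction when a tumor was left out. *Mcpt4* ranged from -0.22 to 0.66 (-0.14 without VP replicate 3), *Cma1* from -0.40 to 0.20 (0.04 without Trp53fl/fl replicate 2), *Cpa3* from -1.09 to 0.38, *Fcer1a* from -0.97 to 0.13 and *Tpsb2* from -0.064 to 0.96. The cause was not tested. The difference in the share of *Mcpt1* and *Mcpt2* ranged from -15.1 to -4.30 percentage points with a tumor left out, and was -5.86 among the 4 chymases alone.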
